A study of Mus musculus with 6 samples.

Results

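The 4 genes described here are Pomc, Agrp, Npy and Cartpt, the feeding peptide genes of the arcuate nucleus. They were taken by name as the rows of those symbols among the 50559 genes of the count table, and all 4 had enough counts to be among the 20257 genes tested. Levels were measured by RNA sequencing of mouse hypothalamus in 6 libraries, 3 from wild-type mice and 3 from mice labelled as knockout for SRC-1 (SRC1 KO), the steroid receptor coactivator encoded by Ncoa1. No treatment is labelled, and the age, the strain, the construction of the knockout allele and whether the libraries come from separate animals are not stated in the labels. The p-values therefore cover the spread among these 6 libraries, and that spread could be technical. Totals ran from 36613507 to 46755553 counts. Ncoa1 had 4630 to 5406 counts in the wild-type libraries and 1478 to 1766 in the knockout libraries, so each library matched its label.

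The arcuate nucleus lies at the base of the hypothalamus beside the median eminence and holds opposed populations of neurons that read leptin, insulin and ghrelin. Neurons that make Pomc, the precursor cut into alpha-MSH and other melanocortins, restrain feeding through the receptors Mc3r and Mc4r, and many of them also make the peptide precursor Cartpt. Neurons that make Agrp, an inverse agonist of the same receptors, together with the neuropeptide Npy, drive feeding. Agrp is almost confined to the arcuate nucleus, whereas Npy is also made by interneurons of cortex and striatum, Cartpt by other hypothalamic nuclei, and Pomc by the pituitary. SRC-1 has been linked to Pomc transcription together with STAT3, and the comparison of the genotypes bears on how these transcripts differ when SRC-1 is lost. In bulk tissue such as this, fewer cells of a type and less RNA per cell cannot be told apart.

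The sequences before the start sites are shown because Pomc and Npy were low in the same libraries. Cartpt, which followed them less closely across libraries than they followed each other, is set beside them. RefSeq promoter entries (table of build GRCm38.p6) were found for 3 of the 4 genes, Pomc, Npy and Cartpt. The 250 bases before each start site matched GRCm39 letter for letter at 1 place each, chr12:4004695-4004944 for Pomc (plus strand), chr6:49799440-49799689 for Npy (plus strand) and chr13:100037192-100037441 for Cartpt (minus strand). They are printed 5′ to 3′ on the gene's strand, and capitals mark matches to any of 4 motifs, searched on both strands.
Pomc: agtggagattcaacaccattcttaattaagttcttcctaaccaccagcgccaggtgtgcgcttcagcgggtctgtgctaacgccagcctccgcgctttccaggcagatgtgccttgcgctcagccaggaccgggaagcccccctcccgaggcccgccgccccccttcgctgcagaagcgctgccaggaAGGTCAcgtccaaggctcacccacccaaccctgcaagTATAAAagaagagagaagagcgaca
Npy: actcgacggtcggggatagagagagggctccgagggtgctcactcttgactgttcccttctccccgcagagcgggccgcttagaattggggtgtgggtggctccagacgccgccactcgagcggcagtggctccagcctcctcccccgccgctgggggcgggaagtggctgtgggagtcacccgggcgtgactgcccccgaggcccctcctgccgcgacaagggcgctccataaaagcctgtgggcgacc
Cartpt: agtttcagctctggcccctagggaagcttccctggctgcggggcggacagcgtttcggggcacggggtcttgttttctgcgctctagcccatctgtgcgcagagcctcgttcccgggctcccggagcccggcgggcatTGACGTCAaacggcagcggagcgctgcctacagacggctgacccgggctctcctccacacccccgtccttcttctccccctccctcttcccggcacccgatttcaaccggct
The motifs were the TATA box TATAAA, the nuclear receptor hexamer AGGTCA, the STAT site TTCNNNGAA and TGACG, the core of a cyclic AMP response element. The Pomc window held TATAAA at offset -25 and AGGTCA at offset -62, counting the base just before the start site as -1. The Cartpt window held TGACG on both strands, in overlapping matches at offsets -112 and -109. The Npy window held none of the 4 motifs, and no window held the STAT site. Of 32851 promoter windows of the same length, 12.4% held TATAAA, 14.0% AGGTCA, 7.02% the STAT site and 17.8% TGACG.

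In wild type, Cartpt was the most abundant of the 4 transcripts and Agrp the least. Levels between genes are compared per length, as FPKM, which here is CPM (counts over the TMM-scaled library total) divided by kilobases of exon in the table. Cartpt had 91.6, 107 and 126 FPKM in wild-type replicates 1 to 3, Pomc 58.2, 37.7 and 56.5, Npy 24.6, 31.9 and 79.9, and Agrp 4.32, 6.18 and 14.8. The wild-type means were 108 ± 17.4 for Cartpt, 50.8 ± 11.3 for Pomc, 45.5 ± 30.0 for Npy and 8.44 ± 5.60 FPKM for Agrp (SD, n = 3 each). Pomc and Npy, neighbours in that order, did not differ beyond their spread, since their ranges overlapped, while Cartpt lay above every Pomc and Npy value and Agrp below them. In the knockout the means were 78.4 ± 24.3 for Cartpt, 14.6 ± 8.22 for Npy, 10.5 ± 10.6 for Pomc and 2.10 ± 0.856 FPKM for Agrp (SD, n = 3 each), and the ranges of Pomc and Npy again overlapped. By rank per length among the 20257 genes tested, Pomc stood at percentile 95.5, 92.9 and 95.0 in wild type and at 57.7, 53.7 and 86.6 in the knockout. Cartpt stayed between percentile 94.8 and 98.1 in all 6 libraries.

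Pomc, Agrp and Npy were each lower in all 3 knockout libraries than in any wild-type library, and none of the 4 passed the test across all genes. Groups that do not overlap, with the knockout lower, were found for 3 of these 4 genes and for 9.03% of all genes tested (17.6% in either direction). With an adjusted p under 0.05 in edgeR's quasi-likelihood test, 0 of the 4 were called, as against 0.834% of all genes. At an unadjusted p under 0.05 with the knockout lower, Pomc and Agrp passed, 2 of 4, as did 7.21% of all genes (13.0% in either direction). DESeq2 called Agrp, where it called 4.49% of the 18293 genes to which it gave an adjusted p (2.82% lower and 1.67% higher). Limma-voom called none of the 4 and 0.508% of all genes, and limma-voom with sample quality weights called Pomc and 1.98% of all genes. The median log2 fold change over all genes tested was 0.0042.

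Pomc (chromosome 12, 4004945 to 4010643, plus strand, GRCm39) was counted 3143, 1893 and 3111 times in wild-type replicates 1 to 3, against 271, 209 and 1376 times in knockout replicates 1 to 3. On the CPM scale wild type gave 77.1, 50.0 and 74.9, and the knockout 6.46, 5.27 and 30.2. The wild-type libraries lay within 1.54-fold of each other, while knockout replicate 3 was 5.72-fold above knockout replicate 2, so the spread came mostly from 1 knockout library. The wild-type mean was 4.82 times the knockout mean, a log2 fold change of -2.26 ± 0.81 (SE) for which edgeR gave an adjusted p of 0.375. Without knockout replicate 3 it was -3.52 with an adjusted p of 0.0226, and leaving out any other single library gave -2.43 to -1.87 with adjusted p from 0.441 to 0.748.

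Agrp (chromosome 8, 106293327 to 106306477, minus strand) had the fewest counts of the 4, with 152, 202 and 531 in wild type against 64, 50 and 121 without SRC-1. Wild-type levels were 3.73, 5.33 and 12.8 CPM, and knockout levels 1.53, 1.26 and 2.65 CPM. Replicate 3 was the highest of its group in both genotypes, and every knockout value lay below every wild-type value. The wild-type mean was 4.02 times the knockout mean, with a log2 fold change of -2.00 ± 0.58 (SE) and an adjusted p of 0.24. Without wild-type replicate 3 the log2 fold change was -1.31 (adjusted p 0.123), a smaller difference but in the same direction. Counting error was at most 14.1% of a value, in the knockout library with 50 counts, and covers sampling of reads only.

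Npy (chromosome 6, 49799690 to 49806487, plus strand) was counted 569, 684 and 1878 times in wild type against 253, 204 and 621 times in the knockout. Wild-type levels were 13.9, 18.1 and 45.2 CPM, and knockout levels 6.03, 5.14 and 13.6 CPM. As with Agrp, replicate 3 stood highest in both groups, and the groups were separated narrowly, by wild-type replicate 1 at 13.9 and knockout replicate 3 at 13.6 CPM. The wild-type mean was 3.12 times the knockout mean, with a log2 fold change of -1.63 ± 0.68 (SE) and an adjusted p of 0.444. It was -0.95 (adjusted p 0.588) without wild-type replicate 3. Without both libraries numbered 3, an alternative chosen after seeing the data, it was -1.52 with an adjusted p of 0.0318.

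Cartpt (chromosome 13, 100034991 to 100037191, minus strand) was counted 3269, 3537 and 4589 times in wild type against 1890, 3432 and 3391 times in the knockout. Wild-type levels were 80.1, 93.4 and 110 CPM, and knockout levels 45.0, 86.5 and 74.3 CPM. The groups overlapped, and knockout replicate 1 was the only library under 70 CPM. The wild-type mean was 1.38 times the knockout mean, with a log2 fold change of -0.46 ± 0.27 (SE) and an adjusted p of 0.586. Without knockout replicate 1 it was -0.23 (adjusted p 0.769).

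**Figure D1:**
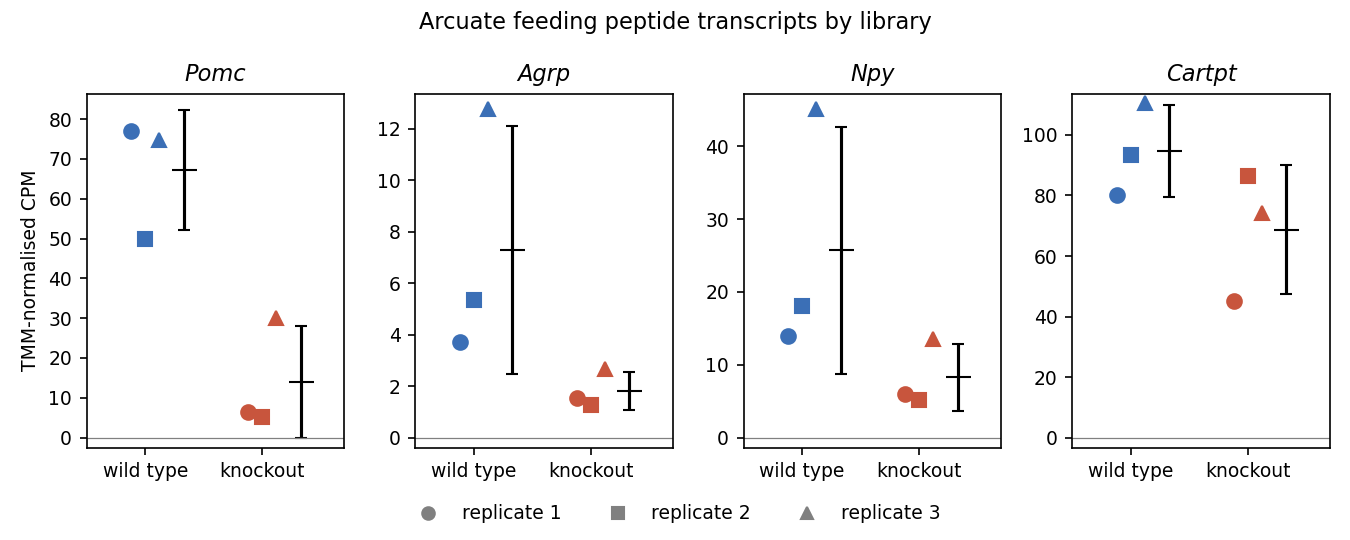
TMM-normalised CPM (vertical axes, 1 scale per gene) of Pomc, Agrp, Npy and Cartpt in 3 wild-type (blue) and 3 knockout (red) libraries, with marker shape for the replicate number and black bars for the mean and SD of each group. Pomc, Agrp and Npy do not overlap between the groups, Cartpt does, and knockout replicate 3 has 30.2 CPM of Pomc where the other knockout libraries have 6.46 and 5.27.

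The spread of Pomc, Agrp and Npy between libraries of one genotype was among the largest in the data. The biological coefficient of variation fitted by edgeR was 66.1% for Pomc, 46.0% for Agrp, 54.6% for Npy and 23.1% for Cartpt, against 12.3% for all genes in common. These values exceeded those of 99.2%, 98.4%, 98.9% and 85.1% of the genes tested. Over all 6 libraries Pomc spanned a 14.6-fold range, Agrp 10.1-fold, Npy 8.79-fold and Cartpt 2.45-fold. All 16 alternative fits gave a negative log2 fold change for each of the 4 genes, from -3.52 to -1.82 for Pomc, -2.38 to -1.31 for Agrp, -2.20 to -0.95 for Npy and -0.66 to -0.23 for Cartpt. Of these 16 fits, 2 passed for Pomc, 2 for Agrp, 2 for Npy and 0 for Cartpt.

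**Figure D2:**
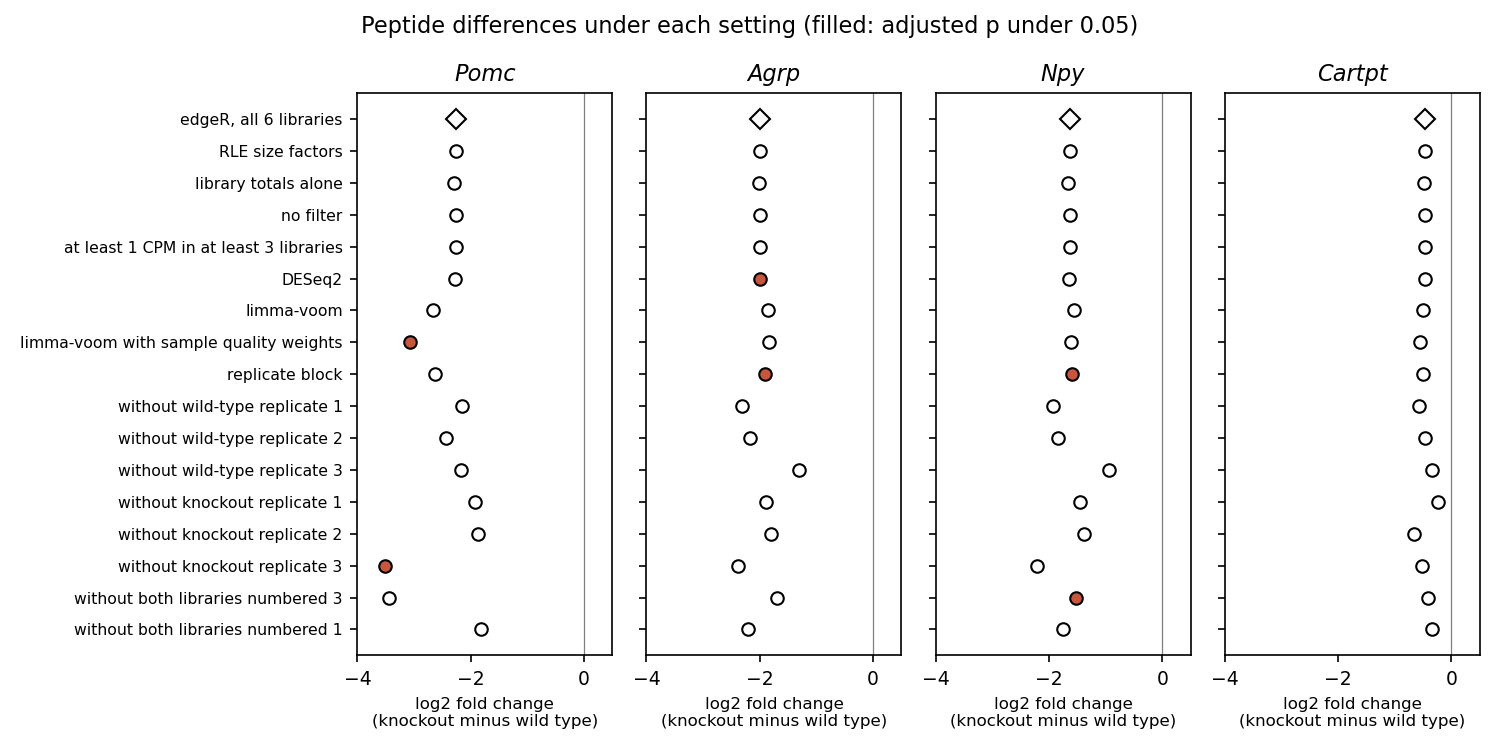
Log2 fold change (knockout minus wild type, horizontal axis) of each peptide gene under the edgeR fit to all 6 libraries (diamond) and 16 alternatives (circles, 1 per line), filled where the adjusted p was under 0.05. All points lie below 0, and Pomc moves from -2.26 to -3.52 when knockout replicate 3 is left out.

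Agrp and Npy, made by the same arcuate neurons, kept an almost fixed ratio while both varied widely. Ratios were taken within each library from counts per kilobase of exon, so they do not depend on scaling between libraries. Agrp to Npy was 0.175, 0.194 and 0.185 in wild type against 0.166, 0.161 and 0.128 in the knockout. Over the 6 libraries this ratio spanned a 1.52-fold range, against 10.1-fold for Agrp alone and 8.79-fold for Npy alone. The groups did not overlap, and the log2 difference was -0.29 (exact permutation test, two-sided, p = 0.1, adjusted p = 0.2 over the 6 ratios). It lay between -0.37 (without knockout replicate 1) and -0.18 (without knockout replicate 3) when 1 library was left out. With 3 libraries against 3 the smallest exact p is 0.1, so no ratio could pass.

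Ratios across the populations varied more. Pomc to Agrp was 13.5, 6.10 and 3.82 in wild type against 2.76, 2.72 and 7.41 in the knockout. The groups overlapped, with knockout replicate 3 above wild-type replicates 2 and 3, and the log2 difference was -0.83 (exact permutation p = 0.3, adjusted p = 0.3). Leaving out 1 library gave -1.31 (without knockout replicate 3) to -0.34 (without wild-type replicate 1). Pomc to Npy was 2.36, 1.18 and 0.708 in wild type against 0.458, 0.438 and 0.947 in the knockout. Here too knockout replicate 3 lay inside the wild-type range, and the log2 difference was -1.13 (exact permutation p = 0.2, adjusted p = 0.24), with -1.54 (without wild-type replicate 3) to -0.67 (without wild-type replicate 1) when 1 library was left out. The 2 knockout libraries with the least Pomc had Pomc to Npy ratios below every wild-type library.

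Within the pair made by Pomc neurons, Pomc to Cartpt was 0.635, 0.353 and 0.448 in wild type against 0.0947, 0.0402 and 0.268 in the knockout. The knockout values all lay below the wild-type values, and the 6 libraries spanned a 15.8-fold range, the widest of the 6 ratios. The log2 difference was -2.21 (exact permutation p = 0.1, adjusted p = 0.2), and leaving out 1 library gave -2.91 (without knockout replicate 3) to -1.55 (without knockout replicate 2). Cartpt to Agrp was 21.2, 17.3 and 8.52 in wild type against 29.1, 67.7 and 27.6 in the knockout. These groups did not overlap either, with a log2 difference of 1.38 (exact permutation p = 0.1, adjusted p = 0.2). Cartpt to Npy was 3.72, 3.34 and 1.58 in wild type against 4.83, 10.9 and 3.53 in the knockout, where the groups overlapped (log2 difference 1.08, exact permutation p = 0.2, adjusted p = 0.24). With 1 library left out, Cartpt to Agrp gave 0.96 (without knockout replicate 2) to 1.64 (without wild-type replicate 1), and Cartpt to Npy 0.61 (without knockout replicate 2) to 1.43 (without knockout replicate 3).

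**Figure D3:**
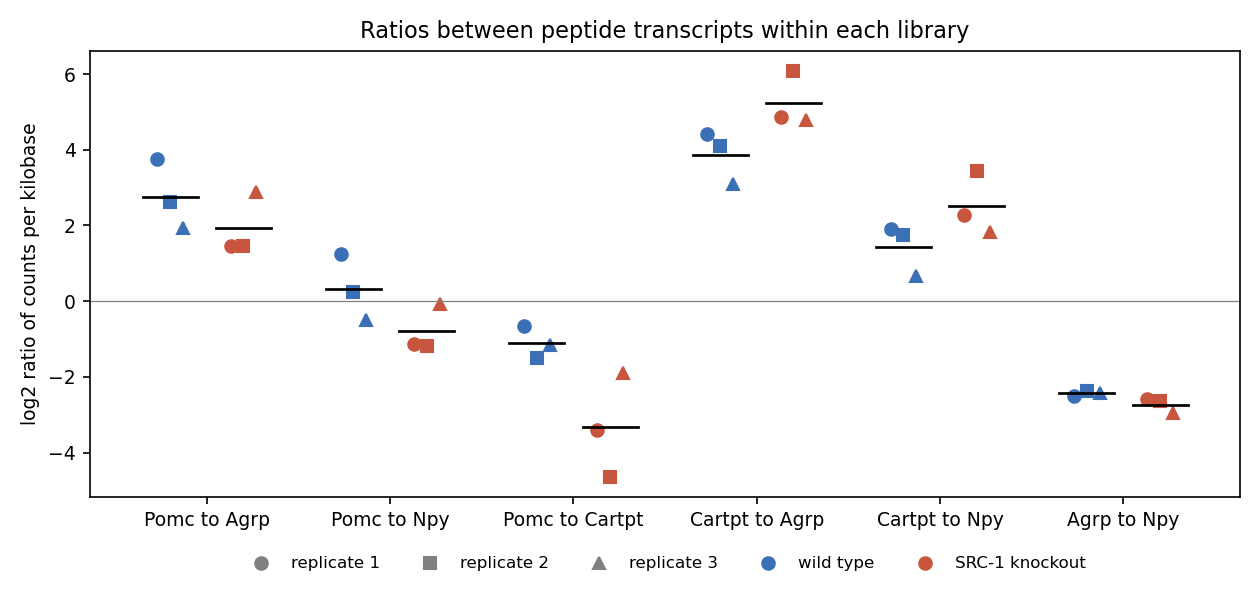
Log2 ratio of counts per kilobase (vertical axis) for the 6 pairs of peptide genes, with 3 wild-type (blue) and 3 knockout (red) libraries each, marker shape for the replicate number and black lines for group means. The Agrp to Npy points lie within a 1.52-fold range, while Pomc to Cartpt spans 15.8-fold.

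The genes whose pattern was most like each peptide were found by Pearson's r of log2 CPM over the 6 libraries, among 13925 other genes with a mean of at least 1 CPM. These points share libraries and genotype, and with 6 of them r is high for many genes, so the values are a description. For Agrp the order held Npy at rank 5 (r = 0.987), after Fkbp5, a co-chaperone of steroid receptors (0.995), Smim3 (0.995), Tpst2 (0.990) and Fam214a (0.988). For Npy the order was Tmem108 (0.991), Cep57 (0.988), Mrpl1 (0.988), Kcng2 (0.988) and Agrp (0.987). Pomc was most like Tesc (0.993), Gpc3, a glypican (0.992), Lman1 (0.992), Kcnv1 (0.991) and the axon guidance ligand Slit2 (0.990). Cartpt was most like Cthrc1 (0.988), Mlip (0.986), Alkbh1 (0.984), Mad2l1bp (0.981) and Tbx19 (0.981). Genes with r over 0.95 numbered 96 for Pomc, 53 for Agrp, 64 for Npy and 20 for Cartpt. Between the peptides of opposed populations r was 0.865 for Pomc with Agrp and 0.877 for Pomc with Npy. Cartpt had 0.602 with Pomc, 0.686 with Agrp and 0.678 with Npy.

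Genes of the same neurons were examined as lists. These lists, and those of other cells below, were chosen with earlier results of these data known. Of 10 genes of AgRP and NPY neurons, Corin, a protease made by Agrp neurons among other cells, fell (-1.60 ± 0.23, adjusted p 0.0172), 1 of 10 where 0.592% of all genes were lower by the same test. It measured 2.30, 2.59 and 3.08 CPM in wild type against 0.763, 0.756 and 1.10 CPM in the knockout, so the groups stood apart, and without knockout replicate 1 its adjusted p was 0.0994. The list median was -0.55 with 7 of 10 values negative, where 48.9% of all genes were negative. DESeq2 called 5 of these 10 as lower, against its 2.82% of all genes. Of 10 genes of POMC neurons none passed in edgeR, 5 had an unadjusted p under 0.05 (4 lower and 1 higher, where 7.21% and 5.75% of all genes were), and the median was -0.30. DESeq2 called 2 of these 10 as lower (2.82% of all genes), limma-voom with weights 1 and limma-voom 0. Tbx3, a T-box factor of arcuate neurons and tanycytes, had 13.7, 18.3 and 21.2 CPM in wild type against 5.60, 7.76 and 9.29 CPM in the knockout (-1.23 ± 0.22, adjusted p 0.0617). It passed in 1 of 6 fits with a library left out, the fit without wild-type replicate 1 (adjusted p 0.0398). The melanocortin receptor Mc3r (-0.73 ± 0.22, adjusted p 0.197), the GLP-1 receptor Glp1r (-0.54 ± 0.17, adjusted p 0.181) and the serotonin receptor Htr2c (0.26 ± 0.095, adjusted p 0.274) did not pass.

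The lists of receptors, prohormone processing genes and input signals of the pathway held 1 fall each in edgeR. Of all genes, 0.592% fell in edgeR and 2.82% in DESeq2. Of 15 melanocortin and NPY receptors and partners, 11 were tested. Npy1r, the main postsynaptic NPY receptor, fell, with 26.0, 22.0 and 23.0 CPM in wild type against 14.2, 13.6 and 18.2 CPM in the knockout (-0.62 ± 0.12, adjusted p 0.0474). The other 10 tested members did not pass in edgeR, the median was -0.29, and DESeq2 called 3 of the 11. Of 15 genes of prohormone processing, a list of enzymes, granins and partners, the granin Vgf fell (-0.40 ± 0.077, adjusted p 0.0482) and the median was -0.11. The convertases Pcsk1 (-0.16 ± 0.099, adjusted p 0.572) and Pcsk2 (0.01 ± 0.071, adjusted p 0.972) and the carboxypeptidase Cpe (0.20 ± 0.11, adjusted p 0.505) did not pass. Of 15 genes of leptin, insulin and ghrelin input, Foxo1, a transcription factor restrained by insulin, fell (-0.49 ± 0.094, adjusted p 0.0481), the median was -0.071, and DESeq2 called 3. These 3 calls were lost when single libraries were left out. Npy1r and Foxo1 each passed in 1 of the 6 fits with a library left out, the fit without knockout replicate 3 (adjusted p 0.0172 and 0.0176), and had adjusted p of 0.0638 to 0.206 and 0.0668 to 0.208 in the others. Vgf passed in 0 of the 6 (adjusted p from 0.0579 to 0.124). Lepr, Mc3r, Npy2r, Ghsr and Insr are on more than 1 of these lists.

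Markers of other cells of the basal hypothalamus were measured in the same libraries. Of 8 genes of other arcuate neurons none passed in the main edgeR fit, 2 were lower at an unadjusted p under 0.05 (7.21% of all genes), and DESeq2 and limma-voom with and without weights called 0. The median was -0.49, and 6 values were negative. Growth hormone-releasing hormone, Ghrh, had 6.79, 5.81 and 11.4 CPM in wild type against 2.60, 3.12 and 6.92 CPM in the knockout (-0.92 ± 0.47, adjusted p 0.508). With a replicate block in edgeR, Ghrh passed (-0.99, adjusted p 0.0465), the 1 call among the 8 there. Without a filter on low counts 1 of the 8 was also called as lower. Kiss1, the kisspeptin gene, had 1.35, 1.16 and 1.47 CPM against 0.214, 0.504 and 0.833 (-1.34 ± 0.39, adjusted p 0.157). In both genes knockout replicate 3 was the highest knockout library, as for Pomc, Agrp and Npy. Tac2, a tachykinin of the kisspeptin neurons, had 20.8, 26.5 and 32.4 CPM against 28.0, 24.1 and 26.4, and its groups overlapped (-0.02 ± 0.15, adjusted p 0.97). The summed level of the list lay between 185 and 194 CPM in wild type, and between 134 and 375 CPM in the knockout, where the dopamine transporter Slc6a3, named after its values were seen, alone reached 183 CPM in knockout replicate 1.

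Genes of tanycytes, cells that line the ventricle floor beside the arcuate nucleus, fell in 7 of 9 cases, where 0.592% of all genes fell. All 9 values were negative, as were 48.9% of all genes, and the median was -1.32. Their summed level lay between 163 and 216 CPM in wild type, and between 83.0 and 87.9 CPM without SRC-1, and Rax, a homeobox gene of tanycytes, was 1.67, 3.17 and 4.04 CPM against 0.548, 0.580 and 0.657. The number of falls was 2 without knockout replicate 1, 4 without wild-type replicate 2, 4 with library totals alone, 2 without both libraries numbered 3 and 4 without both numbered 1. The list was chosen with earlier results of these data known, so the shares of its genes are a description. The part of the tanycyte difference in the peptide values was not tested.

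Pituitary genes, measured because the pituitary also makes Pomc, gave 1 fall among 10 tested of 12, where 0.592% of all genes fell, and DESeq2 called 3 as lower (2.82% of all genes). At an unadjusted p under 0.05, 6 of the 10 were lower, against 7.21% of all genes, and 6 of the 10 were lower without overlap between the groups, against 9.03%. The list median was -1.22. Pitx1, a pituitary transcription factor, fell (37, 36 and 54 counts in wild type, 3, 3 and 4 in the knockout, adjusted p 0.00392). Cga, the shared hormone subunit, had 184, 225 and 502 counts against 15, 1 and 3, and Fshb 10, 11 and 50 against 0, 0 and 0. Tbx19, the factor that activates Pomc in corticotrophs, had 76, 78 and 118 counts against 14, 60 and 49. Lhx3, a pituitary homeobox gene, had 36, 29 and 49 counts against 16, 19 and 16, and the hormone subunit gene Lhb 72, 42 and 98 against 9, 32 and 12. These 6 genes were lower in every knockout library than in any wild-type library, as Pomc was. Gh had 477, 0 and 0 counts in wild type against 280, 7 and 1 in the knockout and did not pass the filter on low counts. The part of pituitary RNA in the Pomc difference was not tested.

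Nuclei next to the arcuate showed no shared direction. Of 10 genes of neighbouring nuclei none had even an unadjusted p under 0.05 in edgeR, 5 were negative, and the other 3 tools called 0. Nr5a1, of the ventromedial nucleus, had 28.6, 12.3 and 19.2 CPM in wild type against 6.48, 8.64 and 14.4 CPM in the knockout (-1.02 ± 0.45, adjusted p 0.454). Fezf1, also of the ventromedial nucleus, had 41.1, 19.8 and 25.8 against 14.4, 15.0 and 22.2 CPM (-0.75 ± 0.34, adjusted p 0.462). Both ventromedial genes were thus negative, with groups that overlapped. Pmch, of the lateral hypothalamus, had 147, 271 and 262 against 250, 408 and 283 CPM (0.47 ± 0.32, adjusted p 0.657). Neuron markers had a median of 0.13 over 6 genes with 0 past the adjusted threshold in edgeR and 2 higher at an unadjusted p under 0.05, against 5.75% of all genes (1 called by DESeq2 and 0 by limma-voom with or without weights), and a summed level of 2916 to 3161 CPM against 3298 to 3487. Oligodendrocyte markers rose in 3 of 6 cases with a median of 0.71, where 0.242% of all genes rose, and 1 of them, Opalin, passed in 6 of 6 fits with a library left out. The number of these rises ran from 1 to 4 when 1 library was left out. Cortical markers, of a region with Npy interneurons, held 1 rise among 4 tested, against 0.242% of all genes, Tbr1 (2.26 ± 0.24, adjusted p 0.00584), and striatal markers 0 calls among 5 in edgeR, with 3 lower and 1 higher at an unadjusted p under 0.05, against 7.21% and 5.75% of all genes (1 called by DESeq2 and 0 by limma-voom with or without weights). The medians were -0.020 for cortex, which became 0.68 with limma-voom, and -0.29 for striatum.

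**Figure D4:**
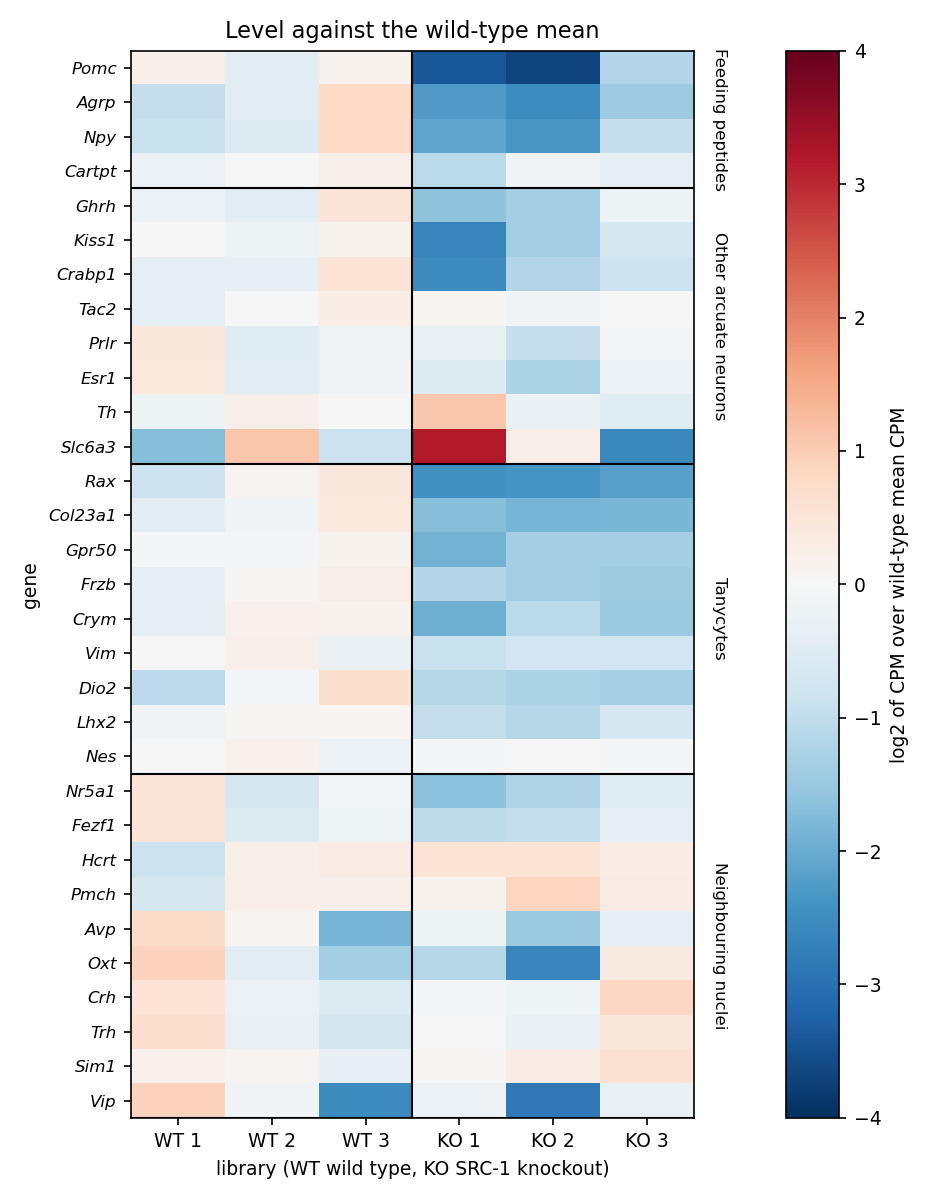
Log2 of each gene's CPM over its wild-type mean (colour, blue lower and red higher) in the 6 libraries (columns) for the peptides, other arcuate neurons, tanycytes and neighbouring nuclei (rows). Pomc, Agrp and Npy are lower in all 3 knockout libraries with the smallest difference in knockout replicate 3, the 9 tanycyte genes lie below their wild-type mean in all 3, and the neighbouring nuclei are mixed.

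Pomc lies on the same chromosome as Ncoa1. Its end is 286719 bases from the nearest end of Ncoa1 on chromosome 12, so the SRC-1 genotype and any other difference between the groups in this genomic region cannot be told apart at Pomc. Of 22 genes within 0.5 Mb of Pomc 12 were tested, and Ncoa1 was the only call. Efr3b, the nearest, at 1911 bases, had a mean of 281 CPM in wild type against 312 CPM without SRC-1 (0.15 ± 0.099, adjusted p 0.6), and Adcy3, an adenylate cyclase gene, 83.7 against 78.3 CPM (-0.10 ± 0.074, adjusted p 0.684). The other 3 peptide genes lie on chromosomes 6, 8 and 13.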

How the data were processed

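RNA from mouse hypothalamus was sequenced as paired-end reads in 6 libraries (RNeasy extraction and TruSeq libraries, per the labels' protocols). The deposited values are raw counts of read pairs per gene. Per the submitters' processing notes the authors used STAR 2.7.10a as aligner. They counted with featureCounts over exons of the mm39 ncbiRefSeq annotation, per the file headers, which give version 2.0.0 where the notes give 2.0.3. The recorded command sets no strand option, so antisense reads could be counted too. None of the exon bases of the 4 peptide genes were shared with another gene in the table.

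Groups came from the sample labels. Genes were tested with edgeR 4.0.16 (TMM, filterByExpr with a minimum count of 10, robust quasi-likelihood F-test, Benjamini-Hochberg threshold 0.05 over all genes tested), after a check on simulated data. DESeq2 1.42.0, limma-voom (limma 3.58.1) plain or weighted by sample quality, other scalings and filters, a replicate block and leaving out each library were alternatives. Ratios were compared with an exact permutation test (scipy 1.17.1). Standard errors are the log2 fold change over the square root of F. Same-numbered libraries did not deviate together in all 3 pairs, so the numbers were not taken as pairs.

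The members and gene lists were chosen with earlier results of these data known. Named genes were the peptides and Ncoa1, list members past the threshold (at most 6 a list) or otherwise up to 4 with the lowest p, the 5 genes most like each peptide, and calls within 0.5 Mb of Pomc. Pcsk1, Pcsk2, Cpe, Tac2, Slc6a3, Cga, Fshb, Lhx3, Lhb, Tbx19 as a pituitary gene, Gh, Efr3b and Adcy3 fall outside that rule and were chosen after their values were seen. The summed level of the pituitary list is not reported here.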

Additional observations from a re-analysis of the deposited data

How the results depend on the processing

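The log2 fold changes of Pomc, Agrp, Npy and Cartpt were negative in all 16 alternatives. Pomc passed at -3.08 with limma-voom quality weights, Agrp at -2.00 with DESeq2, and Npy at -1.52 without both libraries numbered 3. Leaving out 1 library gave -3.52 to -1.87 for Pomc, -2.38 to -1.31 for Agrp, -2.20 to -0.95 for Npy and -0.66 to -0.23 for Cartpt, with only Pomc without knockout replicate 3 passing. With the replicate block Agrp was -1.90 (adjusted p 0.0211) and Npy -1.59 (adjusted p 0.0105), both passing, while Pomc was -2.64 (adjusted p 0.306) and Cartpt -0.50 (adjusted p 0.225), and 155 genes were called against 169 without it. Ghrh, of the other arcuate neurons, also passed with the block (-0.99, adjusted p 0.0465). Deviations of same-numbered libraries correlated at -0.21, 0.35 and 0.22 for replicates 1 to 3. Those of differently numbered libraries correlated between -0.41 and 0.26. Whether libraries of the same number shared handling was not tested.

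Genes called over the whole table numbered 66 with library totals alone, 966 with no filter, 84 with at least 1 CPM in at least 3 libraries, 821 with DESeq2, 103 with limma-voom and 401 with quality weights. Leaving out 1 library gave 36 to 260. The alternatives added after seeing the data gave 67 without both libraries numbered 3 and 29 without both numbered 1. Apart from the fewer libraries or other gene set that an alternative itself brings, the cause was not tested. Each of the 6 ratios kept its direction in its 9 alternatives. Depth limits Agrp most, with 50 counts in its lowest library.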
